A study of Mus musculus with 6 samples.

Results

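The genes described here are 53 interferon-stimulated genes (ISGs), chosen by symbol from the 20323 gene rows of a bulk RNA-seq table. They cover the transcription factors of the interferon response, its nucleic acid sensors, and the antiviral effectors that the response switches on. All 53 symbols had a row. IFITM1 and DDX58 had a pair of rows each, and the row with the higher mean count was kept. The 6 libraries came from RFB, a line that the labels call a kidney fibroblast line. The TGF-β group holds 3 libraries of cells given TGF-β, which drives fibroblasts toward a matrix-producing state. The CXCL10 group holds 3 libraries of cells given both TGF-β and CXCL10, a chemokine that is itself interferon-inducible and acts through the receptor CXCR3. Sample titles of the second group carry a volume of 5 µl of CXCL10, with no concentration, and neither group has a stated exposure time. Every library had therefore seen TGF-β, and an untreated group or an interferon-treated group that could serve as a positive control is not part of the comparison. The labels give the organism as mouse, while every row is a human gene with a human Ensembl identifier, so levels refer to human gene models. The series' design text speaks of a knockdown of SUV39H1, a histone methyltransferase, which the labels of these 6 samples do not name. SUV39H1 held 3.73, 5.60 and 4.96 CPM (scaled counts) with TGF-β and 5.70, 5.45 and 7.12 CPM with CXCL10, with overlapping groups. TGF-β replicate 1 stood apart from the other TGF-β libraries, with a chi-square per degree of freedom of 16.2 and 17.4 against them and 3.07 between them. CXCL10 replicate 1 stood apart in its group as well, at 8.81 and 8.44 against the others and 2.79 between those.

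Type I and type III interferons signal through the kinases JAK1 and TYK2 to a complex that holds STAT2 and IRF9 and binds response elements in ISG promoters, and much of the interferon-γ response runs through IRF1. Some ISGs, among them the IFIT genes, ISG15 and OASL, can also be switched on directly by IRF3 after viral nucleic acid is sensed, without secreted interferon. In fibroblasts the response protects against viruses, and ISGs also have a basal level in unstimulated cells.

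With CXCL10 the ISGs moved in both directions when same-numbered replicates were paired. The labels do not state this pairing, and the main fit, without it, called 0 members. IFIT1, IFIT2, IFIT3, OASL, IFI44, ISG20, ISG15, DDX58 and GBP3 were higher, whereas IRF1, STAT2, IFI16, the poly-ADP-ribose polymerase genes PARP9, PARP10, PARP12 and PARP14 with DTX3L, and XAF1, TRIM25, BST2 and GBP1 were lower. These calls come from a model with the replicate number as a block, called the paired fit here (edgeR quasi-likelihood test, Benjamini-Hochberg adjusted p under 0.05 over 11970 genes). Of the 53 members 46 had enough counts to be tested, and 9 were called higher and 12 lower, which is 19.6% and 26.1% of those tested. Over all genes the same fit called 9.71% higher and 8.04% lower. The median log2 difference was -0.03 over the 46 tested members and -0.01 over all genes.

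Without the pairing edgeR called 0 members and 0% of all genes, with a smallest adjusted p of 0.161. Then 12 members were higher and 12 lower at an unadjusted p under 0.05, and 20.5% of all genes had such a p. DESeq2 without the pairing gave an adjusted p for 31 members, and ISG20, OASL and IFI44 were not among them. Of these 31 it called 0 higher, with a background of 1.81%, and 3 lower (IFI16, PARP14 and DTX3L), with a background of 1.6%, and limma-trend called 0 members and 0% of all genes. With the pairing DESeq2 gave an adjusted p for 40 members and called 7 higher and 5 lower, against 6.24% and 3.77% of all genes, and limma-trend on log2(FPKM + 1) called 7 and 4 of 46, against 2.82% and 2.94%. Paired DESeq2 did not call STAT2, PARP9, PARP10, PARP12, TRIM25, BST2, GBP1 and GBP3, with adjusted p values of 0.0754 to 0.301, and gave none for ISG20. Paired limma-trend did not call STAT2, DDX58, XAF1, PARP9, PARP10, PARP12, DTX3L, TRIM25, GBP1 and GBP3, with adjusted p values of 0.0601 to 0.203. In the authors' deposited table the members ISG20, OASL and IFI44 were higher and IFI16 and PARP14 lower at an adjusted p under 0.05, with backgrounds of 0.714% and 0.618%. Without the pairing and without TGF-β replicate 1, edgeR called 10 members higher and 12 lower, against 10.7% and 8.61% of all genes, and 9 and 10 of them were members called in the paired fit. BST2 and GBP1 were then not called (adjusted p = 0.0811 and 0.119), while MX2 was called higher and TRIM22 and SP100 lower (0.0479, 0.0366 and 0.0401). Below, log2 changes, standard errors (SE) and adjusted p values are those of the paired edgeR fit unless stated otherwise, and levels are CPM, which are counts scaled to a common library size, here with TMM factors.

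**Figure D1:**
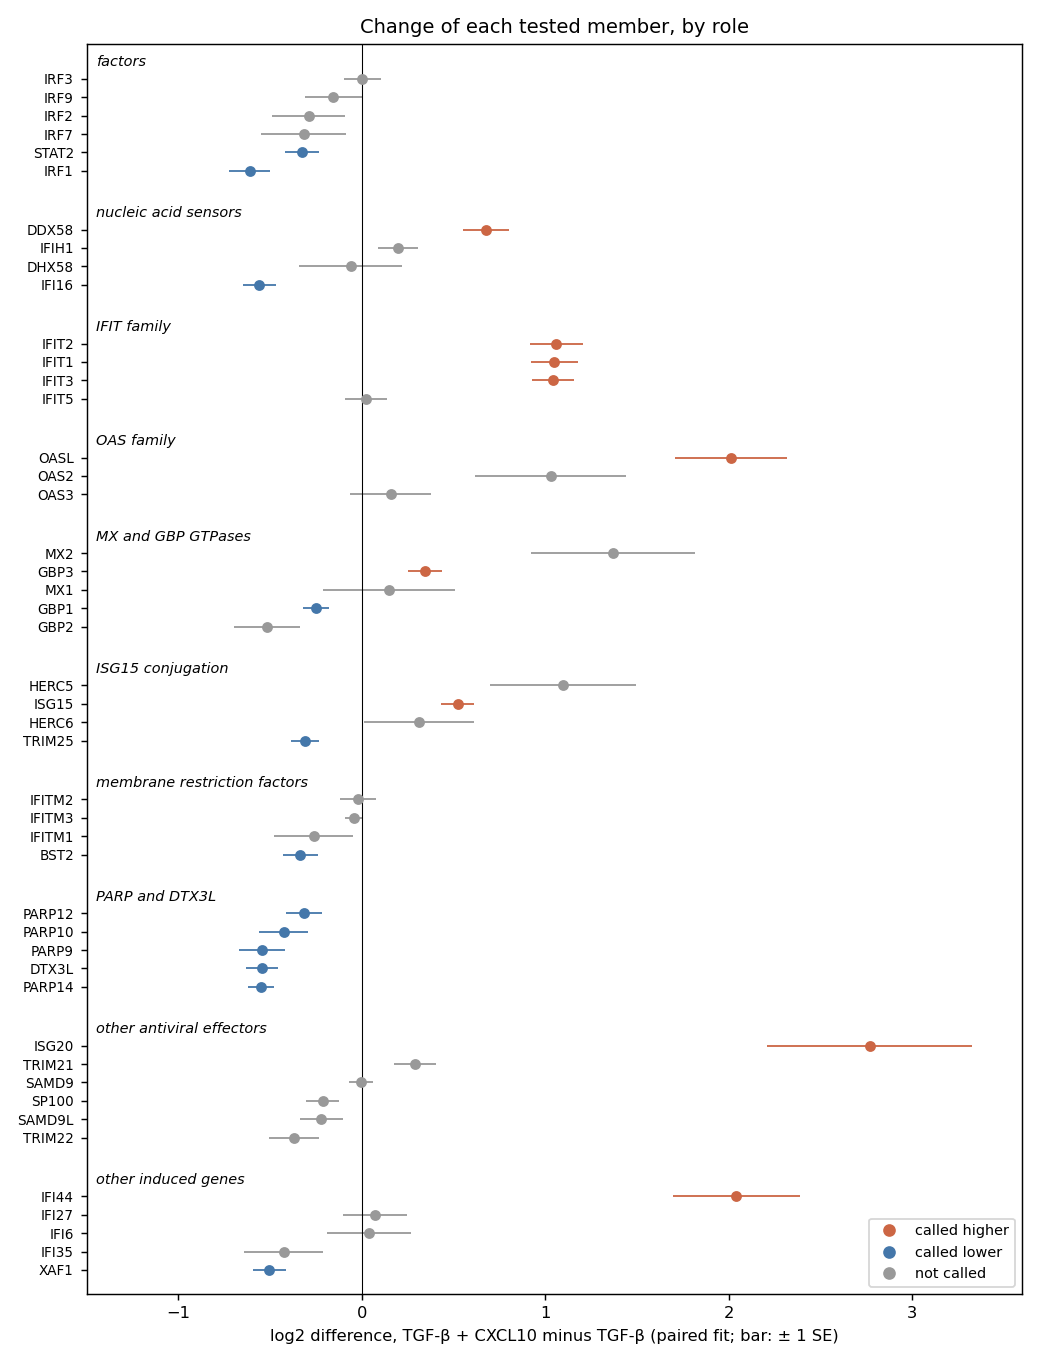
Log2 difference of the 46 tested members between TGF-β with CXCL10 and TGF-β alone, with bars of ± 1 SE from the fit paired by replicate number, grouped by role. The 9 members called higher (orange) lie between 0.34 and 2.77 and the 12 called lower (blue) between -0.61 and -0.25. The 25 grey members were not called.

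The IFIT proteins bind foreign RNA and block its translation, and their genes lie side by side. IFIT1 (ENSG00000185745) stood at 32.5, 13.6 and 12.6 CPM in TGF-β replicates 1, 2 and 3 and at 52.2, 28.5 and 36.0 CPM in the CXCL10 replicates. Its groups overlapped, because TGF-β replicate 1 lay above CXCL10 replicate 2, while every same-numbered pair was higher with CXCL10 (log2 change 1.05, SE 0.13, adjusted p = 0.000114; 0.178 without the pairing). IFIT2 (ENSG00000119922) held 37.9, 16.6 and 13.2 CPM with TGF-β and 54.9, 39.6 and 38.7 CPM with CXCL10. The lowest CXCL10 library of IFIT2 was only just above TGF-β replicate 1 (log2 change 1.06, SE 0.14, adjusted p = 0.000248). IFIT3 (ENSG00000119917) held 32.8, 18.3 and 13.1 CPM with TGF-β against 55.2, 36.4 and 36.5 CPM with CXCL10 (1.04, SE 0.12, adjusted p = 6.09e-05), and its groups did not overlap. The family member IFIT5 gave no such difference, with 14.1 to 15.5 CPM in the TGF-β libraries and 14.3 to 15.7 CPM in the CXCL10 libraries (0.03, SE 0.11, adjusted p = 0.920). Without TGF-β replicate 1 the unpaired log2 change was 1.57 for IFIT1 and 1.57 for IFIT2, where it was 0.99 and 0.98 with all 6 libraries.

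OASL and IFI44 had the steepest relative rises among members with more than 1 CPM in some TGF-β library. OASL (ENSG00000135114), an OAS-like protein that lacks the synthetase activity of its relatives and supports RIG-I signalling, held 4.93, 0.996 and 1.20 CPM with TGF-β and 10.6, 7.43 and 7.49 CPM with CXCL10. IFI44 (ENSG00000137965), an induced cytoplasmic protein, held 2.89, 0.685 and 0.827 CPM with TGF-β and 6.33, 4.90 and 5.32 CPM with CXCL10. For both genes the groups were apart, and TGF-β replicate 1 lay between the other TGF-β libraries and the CXCL10 libraries. The log2 differences of the same-numbered pairs were 1.08, 2.73 and 2.50 for OASL and 1.09, 2.61 and 2.49 for IFI44, so that the pair of replicate 1 differed least. Fitted changes were 2.01 (SE 0.31, adjusted p = 0.000591) and 2.04 (SE 0.35, adjusted p = 0.00128). The unpaired changes of 1.85 and 1.92 became 2.96 and 2.87 without TGF-β replicate 1.

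ISG20 (ENSG00000172183), an exonuclease that degrades viral RNA, had 2, 5 and 4 counts in the TGF-β libraries and 36, 14 and 25 counts in the CXCL10 libraries. Its mean was 0.251 ± 0.0955 CPM with TGF-β and 1.84 ± 0.71 CPM with CXCL10 (SD, n = 3), the highest relative change among the tested members (2.77, SE 0.56, adjusted p = 0.00395). It was the only riser for which TGF-β replicate 1 was the lowest library of its group.

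ISG15 (ENSG00000187608), a ubiquitin-like protein that is attached to other proteins, was the riser with the highest level per gene length. Its FPKM, the authors' value scaled by gene length and library size, averaged 38.5 ± 5.96 with TGF-β and 54.3 ± 15.4 with CXCL10 (SD, n = 3). In scaled CPM it held 28.6, 23.5 and 20.5 with TGF-β and 46.5, 31.5 and 27.4 with CXCL10 (0.52, SE 0.09, adjusted p = 0.00167). CXCL10 replicate 3 lay below TGF-β replicate 1. The unpaired change of ISG15, 0.54, was 0.28 without CXCL10 replicate 1. DDX58 (ENSG00000107201), the cytosolic RNA sensor RIG-I, held 11.8, 9.40 and 7.51 CPM with TGF-β and 19.2, 15.6 and 11.2 CPM with CXCL10. Its pairs differed by 0.69, 0.73 and 0.57, a narrower spread than those of the IFIT genes, and the groups overlapped at 1 library each (0.68, SE 0.13, adjusted p = 0.00231). GBP3 (ENSG00000117226), a guanylate-binding GTPase, was at the lower end, with 31.1, 21.0 and 22.8 CPM against 34.7, 29.7 and 30.1 CPM (0.34, SE 0.09, adjusted p = 0.0235). The GBP3 call was lost without both libraries of replicate 2 or of replicate 3, and with DESeq2 (adjusted p = 0.147 with the pairing). Its unpaired change of 0.34 was 0.53 without TGF-β replicate 1 and 0.22 without TGF-β replicate 2.

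**Figure D2:**
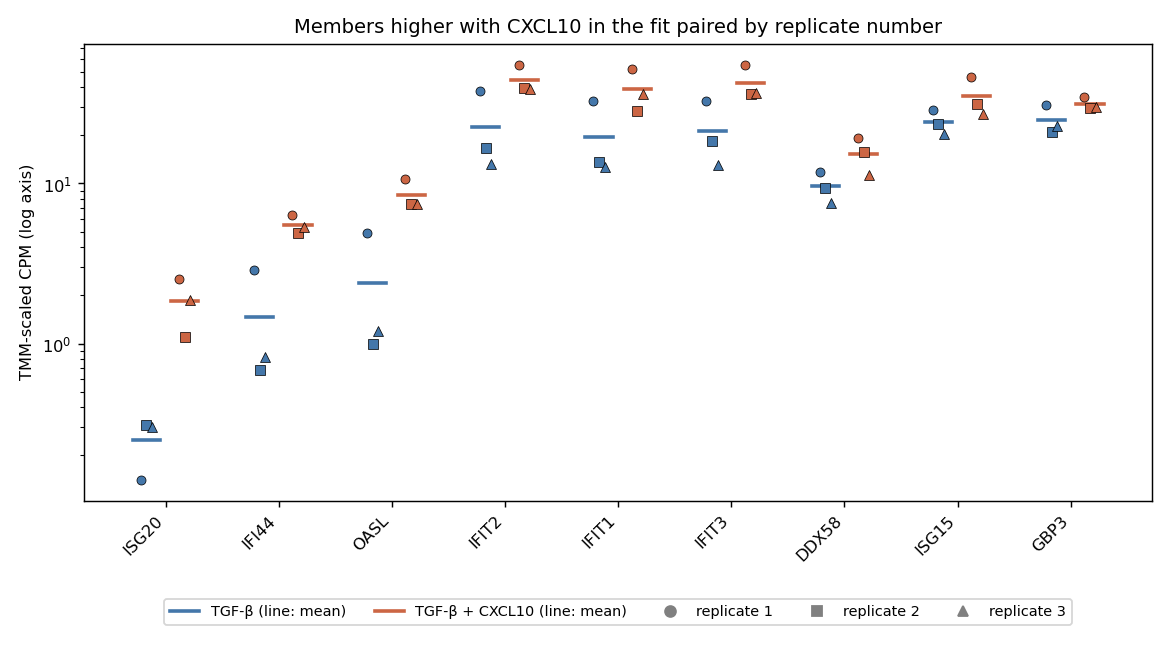
TMM-scaled CPM (log axis) of the 9 members called higher, per library, with symbols for the replicate and lines for the group mean. Replicate 1 (circles) is the highest CXCL10 library for all 9 genes and the highest TGF-β library for all but ISG20.

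All 5 members of the PARP group were called lower in the paired fit, which called 8.04% of all genes lower. Without the pairing edgeR called 0 of the 5. PARP9 and DTX3L form a complex of an ADP-ribosyltransferase and a ubiquitin ligase, and their genes share a promoter in a head-to-head arrangement, next to PARP14. PARP14 (ENSG00000173193), a large mono-ADP-ribosyltransferase, held 46.2, 58.0 and 60.2 CPM with TGF-β and 32.4, 40.2 and 39.5 CPM with CXCL10. All 3 CXCL10 libraries lay below all 3 TGF-β libraries, and the pairs differed by -0.51, -0.53 and -0.61 (-0.55, SE 0.07, adjusted p = 0.000192). DTX3L (ENSG00000163840) held 26.8, 36.9 and 38.7 CPM with TGF-β and 19.1, 25.9 and 25.0 CPM with CXCL10 (-0.55, SE 0.09, adjusted p = 0.000816). PARP9 (ENSG00000138496) held 13.7, 17.1 and 14.6 CPM against 10.1, 11.1 and 9.82 CPM (-0.55, SE 0.12, adjusted p = 0.00830). The groups of these genes did not overlap. Since the use of strand in counting is not stated, reads where PARP9 and DTX3L lie opposite each other could not be assigned with certainty. PARP10 (ENSG00000178685), with 10.9, 14.5 and 15.9 CPM against 9.21, 9.09 and 12.4 CPM, and PARP12 (ENSG00000059378), with 24.4, 31.4 and 31.6 CPM against 22.5, 22.8 and 24.5 CPM, had overlapping groups and adjusted p values nearer the threshold (0.0442 and 0.0381). PARP9, PARP10 and PARP12 were not called without both libraries of replicate 2 or of replicate 3. Of the 5 genes paired DESeq2 called PARP14 and DTX3L, and paired limma-trend called PARP14 only.

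Of the 6 transcription factors IRF1 and STAT2 were called lower and 0 higher, in a fit that called 8.04% of all genes lower and 9.71% higher. Paired DESeq2 and paired limma-trend called IRF1 but not STAT2 (adjusted p = 0.0754 and 0.188 for STAT2). IRF1 (ENSG00000125347), the factor that carries much of the interferon-γ response, held 16.3, 24.7 and 24.9 CPM with TGF-β and 12.3, 14.2 and 16.3 CPM with CXCL10. The highest CXCL10 library lay just under TGF-β replicate 1, and the change was the largest fall among the tested members (-0.61, SE 0.11, adjusted p = 0.00219). STAT2 (ENSG00000170581), a subunit of the type I interferon complex, held 61.6, 88.2 and 71.9 CPM with TGF-β and 56.2, 55.6 and 63.6 CPM with CXCL10 (-0.33, SE 0.09, adjusted p = 0.0249). Its pair of replicate 2 differed by -0.66 and the others by -0.13 and -0.18, and without both libraries of replicate 2 it was not called (-0.15, adjusted p = 0.327). IRF9, the DNA-binding partner of STAT2, stood at 11.1 ± 0.409 and 10.1 ± 2.10 CPM (-0.15, SE 0.15, adjusted p = 0.551). IRF3, which is activated by phosphorylation and not by a rise of its transcript, stood at 21.3 ± 1.49 and 21.3 ± 0.575 CPM (0.00, SE 0.10, adjusted p = 0.988). IRF7, the inducible amplifier of interferon production, gave -0.32 (SE 0.23), and IRF2, a repressor that competes with IRF1, gave -0.29 (SE 0.20), with adjusted p values of 0.392 and 0.360.

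IFI16 (ENSG00000163565), a nuclear DNA sensor, held 61.8, 98.5 and 90.9 CPM with TGF-β and 53.1, 57.6 and 57.1 CPM with CXCL10 (-0.56, SE 0.09, adjusted p = 0.000819). The CXCL10 libraries were close together, while TGF-β replicate 1 was well below the other TGF-β libraries and nearer to the CXCL10 libraries. The pro-apoptotic XAF1 (ENSG00000132530) held 33.9, 47.5 and 42.6 CPM against 22.7, 30.3 and 34.8 CPM (-0.50, SE 0.09, adjusted p = 0.00171). TRIM25 (ENSG00000121060), the ubiquitin ligase that activates RIG-I, held 57.0, 77.7 and 73.9 CPM against 54.1, 56.2 and 56.9 CPM (-0.31, SE 0.08, adjusted p = 0.0151). For TRIM25 TGF-β replicate 1 was only just above the highest CXCL10 library, and the call was lost without both libraries of replicate 2 or of replicate 3.

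BST2 (ENSG00000130303), or tetherin, which holds budding virions at the cell surface, was the faller for which TGF-β replicate 1 held the most CPM of its group. It held 32.7, 31.1 and 27.7 CPM with TGF-β and 22.9, 25.4 and 24.1 CPM with CXCL10, without overlap (-0.34, SE 0.09, adjusted p = 0.0257). The BST2 call was lost whenever a replicate pair was left out. GBP1 (ENSG00000117228) fell least, from 61.4, 75.2 and 69.6 CPM to 46.3, 68.7 and 59.7 CPM (-0.25, SE 0.07, adjusted p = 0.0259), with overlapping groups, and was not called without both libraries of replicate 1 or of replicate 3. Its unpaired change of -0.24 was -0.10 without CXCL10 replicate 1 and -0.38 without CXCL10 replicate 2. GBP1 and GBP3 are close paralogs that went in opposite directions, and reads shared between them could have been counted for either.

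**Figure D3:**
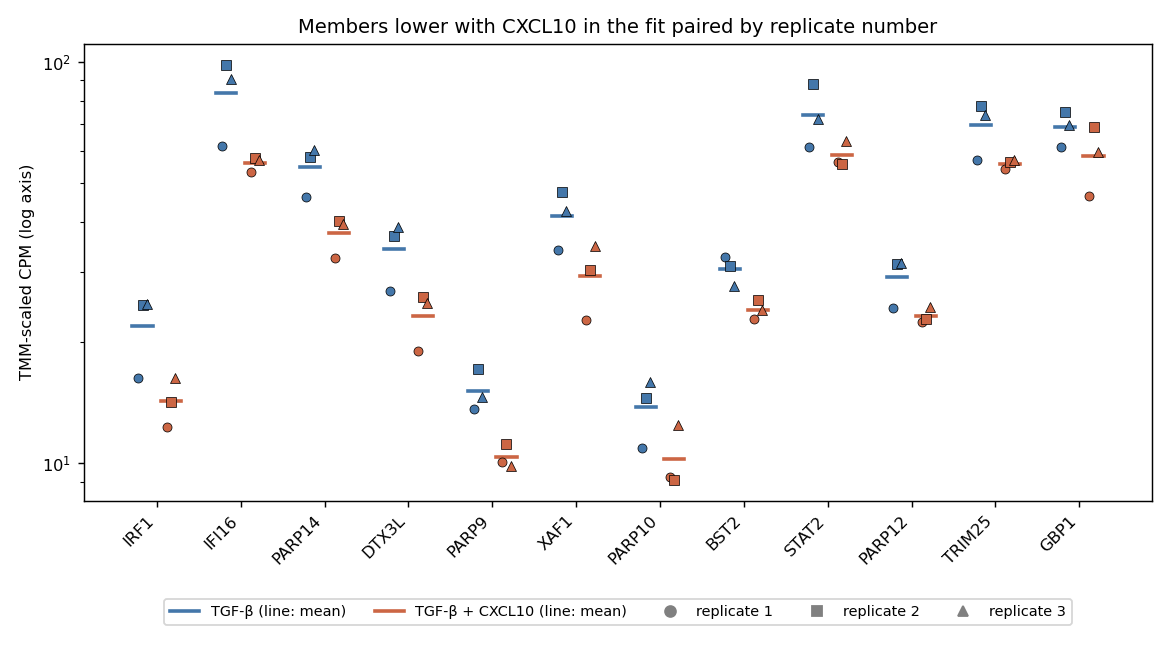
TMM-scaled CPM (log axis) of the 12 members called lower, per library, with symbols for the replicate and lines for the group mean. Replicate 1 (circles) is the lowest TGF-β library for all but BST2, and for 7 of the 12 genes all CXCL10 libraries lie below all TGF-β libraries.

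The remaining 25 tested members were not called, and they included the member with by far the highest level. IFITM3, a membrane protein that stops viruses from entering the cytosol, averaged 319 ± 15.4 FPKM with TGF-β and 297 ± 12.4 FPKM with CXCL10. In scaled CPM it held 196.7, 193 and 182 against 182, 193 and 179 (log2 difference -0.04, SE 0.05, adjusted p = 0.589). The relative IFITM2 stood at 31.9 ± 4.69 and 29.1 ± 1.90 FPKM, with 22.3, 22.2 and 21.0 CPM against 20.7, 22.2 and 21.8 CPM (-0.02, SE 0.10, adjusted p = 0.926). IFITM1 held 5.21, 5.36 and 4.66 CPM against 4.08, 4.19 and 4.42 CPM, without overlap but without a call (-0.26, SE 0.22, adjusted p = 0.453). The IFITM genes are near-identical in sequence, so the split of reads between them is uncertain. With ISG15, BST2 and IFI16, IFITM3 and IFITM2 made up the 5 members with the highest mean FPKM.

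Several uncalled members had higher values in most CXCL10 libraries, of which MX2, OAS2 and HERC5 were at a low level. MX2, a GTPase that blocks nuclear import of viruses, had 11, 8 and 7 counts with TGF-β and 27, 17 and 19 counts with CXCL10. Its groups did not overlap (1.37, SE 0.45, adjusted p = 0.0506), and it was called when TGF-β replicate 1 was left out of the unpaired fit (log2 change 1.59). OAS2, which makes the 2-5A messenger that activates RNase L, had 28, 6 and 20 counts against 41, 25 and 32 counts (1.03, SE 0.41, adjusted p = 0.105). HERC5, the main ligase for ISG15, had 23, 11 and 26 counts against 74, 27 and 26 counts, with no difference in the pair of replicate 3 (1.10, SE 0.40, adjusted p = 0.0758). TRIM21, an antibody receptor of the cytosol, had groups that did not overlap at 13.3, 13.6 and 11.9 CPM against 17.6, 15.7 and 14.1 CPM (0.29, SE 0.12, adjusted p = 0.109). Of the tested members 8 had all CXCL10 libraries above all TGF-β libraries and 8 had them all below, which is 17.4% each, where 11.1% and 11.2% of all tested genes did so.

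The members of some roles thus gave unlike values. The related sensor of long RNA IFIH1, or MDA5, gave 0.20 (SE 0.11, adjusted p = 0.246) beside the rise of DDX58, and their regulator DHX58 gave -0.06 (SE 0.28). OAS3 gave 0.16 (SE 0.22) and MX1 0.15 (SE 0.36). TRIM22 gave -0.37 (SE 0.14, adjusted p = 0.0780) and GBP2 -0.52 (SE 0.18, adjusted p = 0.0638). SAMD9, IFI6 and IFI27 lay between 0.00 and 0.07 in size, with SE of 0.06, 0.23 and 0.17. SP100, a nuclear body protein, gave -0.21, SAMD9L -0.22, IFI35 -0.43 and HERC6 0.31, with adjusted p values between 0.131 and 0.534.

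The 7 members that were not tested had at most 13 counts in any library. RSAD2, or viperin, had 0 counts in the 3 TGF-β libraries and 1, 1 and 2 in the CXCL10 libraries, and CMPK2, its neighbour gene, had 0 in all but CXCL10 replicates 2 and 3, with 1 count each. IFI44L, the paralog of IFI44, had 0, 1 and 2 counts against 4, 6 and 7. OAS1 had 8, 6 and 4 counts against 5, 5 and 1, and USP18, the protease that removes ISG15 and dampens the interferon receptor, had 8, 0 and 13 against 6, 4 and 6. RTP4 had 1 count in TGF-β replicate 2 and 5 in CXCL10 replicate 2. ZBP1, a sensor of Z-form nucleic acid, had 0 counts in all 6 libraries, and a count of 0 allows up to 3 counts, or 0.187 to 0.237 scaled CPM per library, for counting error only. RSAD2, USP18 and OAS1, which respond strongly to type I interferon in many cell types, were thus near the limit of detection in both groups. Without the filter on low counts the paired fit gave 6 of the 7 a value and called 0 of them, with a smallest adjusted p of 0.274 (IFI44L).

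The risers and fallers were then set side by side, with no test, since the members were sorted by the comparison itself. In the TGF-β group the risers had a median of 4.59 FPKM (0.267 to 38.5) and the fallers of 13.6 FPKM (4.41 to 32.2), beside a median of 8.04 over all tested genes and 5.10 for the uncalled members. In the CXCL10 group the medians were close together, at 8.90 and 9.52 FPKM, beside 7.90 over all tested genes. The lowest riser there stood at 2.17 FPKM and the lowest faller at 2.81 FPKM. The sizes of change come from the comparison that sorted the members, so their contrast is no finding. A log2 change of at least 1 was reached by 6 of the 9 risers and 0 of the 12 fallers. In the unpaired edgeR fit and in paired limma-trend 3 of the 9 risers reached that size (ISG20, OASL and IFI44), and the IFIT genes lay just under it. Size and count level both bear on the call, and mean TGF-β levels began at 0.251 CPM among risers and 13.8 CPM among fallers. By the gene ontology columns of the authors' deposited table, 8 of the 9 risers carried the term "response to virus", 1 of the 12 fallers (BST2) did, and 11 of the 25 uncalled members did, beside 0.693% of all tested genes. The related term "defense response to virus" did not part them, with 8 of 9 risers, 8 of 12 fallers and 18 of 25 uncalled members. It was listed for 1.29% of all tested genes. Terms were matched by exact wording, so a gene listed only under "defense response to virus" did not count under "response to virus". The contrast in "response to virus" therefore does not show that the fallers lack antiviral annotation. RNA binding was listed for 6 risers (66.7%) and 4 fallers (33.3%) and 7 uncalled members (28%), beside 11.4% of all genes. Transferase activity was listed for 0 risers and 6 fallers, namely the PARP genes, DTX3L and TRIM25, and for 6 of the 25 uncalled members, beside 11.9% of all genes. The nucleus was listed as a location for 3 risers (33.3%) and 10 fallers (83.3%) and 14 uncalled members (56%), beside 42.0% of all genes. These terms were chosen after their counts in risers and fallers were seen, so the contrasts are descriptions only.

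**Figure D4:**
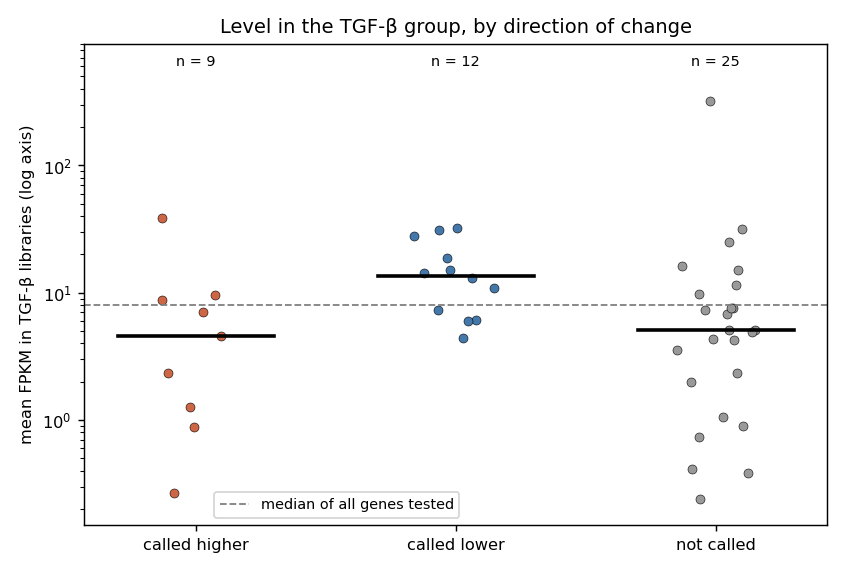
Mean FPKM in the 3 TGF-β libraries (log axis) of each tested member, by its call in the paired fit, with a line at the median of each group and a dashed line at the median of all tested genes. The risers have a median of 4.59 FPKM and the fallers of 13.6 FPKM, the ranges overlap, and these levels are also part of the comparison that sorted the members.

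Within the TGF-β group replicate 1 stood at an end for nearly all called members and for most uncalled ones. It held the highest TGF-β value for 8 of the 9 risers and the lowest for 11 of the 12 fallers. Of the 25 uncalled members it was highest for 7 and lowest for 12. The share over all tested genes was not counted, so this position is not shown to be particular to the members. TGF-β replicate 1 also stood apart from its group across genes, by the chi-square values given above. The log2 distance of TGF-β replicate 1 to the mean of TGF-β replicates 2 and 3 had a median of 1.07 over the risers (-0.66 to 2.03). Over the fallers the median was -0.39 (-0.61 to 0.16). The median over all tested genes was 0.00, where distances of opposite sign cancel. The paired changes with CXCL10, which use the same TGF-β libraries, had medians of 1.05 and -0.47. CXCL10 replicate 1 was the highest of its group for 9 of 9 risers and the lowest for 9 of 12 fallers, at median distances of 0.53 and -0.16. Of the 25 uncalled members it was highest for 12 and lowest for 9. Without both libraries of replicate 1, the paired fit of the other 4 libraries called the same 9 risers and 10 of the 12 fallers (not BST2 and GBP1), in a fit that called 12.7% of all genes higher and 10.9% lower.

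The rest of the interferon pathway, in lists of 134 further genes with a row, was near the background of 9.71% and 8.04%: of 93 tested genes 8 were called higher and 10 lower in the paired fit, and 0 without the pairing. Of 21 interferon ligands 19, IFNB1 and IFNG among them, had 0 counts in all libraries. IFNA1 had at most 4 counts. The exception was IFNE, an interferon known from epithelium of the reproductive tract, with 40, 13 and 21 counts with TGF-β and 72, 32 and 43 with CXCL10 (1.12, SE 0.32, adjusted p = 0.0276), and with TGF-β replicate 1 above CXCL10 replicate 2. Of 5 tested receptor genes 0 were called. The type I receptor chains IFNAR1 and IFNAR2 gave 0.08 (SE 0.07) and -0.03 (SE 0.14), and the interferon-γ receptor chains IFNGR1 and IFNGR2 -0.15 (SE 0.09) and 0.18 (SE 0.08). The kinases JAK1 (0.05, SE 0.05) and TYK2 (0.07, SE 0.07) were not called either.

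The kinase JAK2 was lower with CXCL10 (-0.38, SE 0.11, adjusted p = 0.0310). Among 11 tested brakes of the pathway PIAS3, an inhibitor of STAT3, was called higher (0.36, SE 0.07) and SOCS1 and SOCS3 were not called, at -0.47 (SE 0.33) and 0.03 (SE 0.11). Of 17 tested sensing adaptors and kinases STING1, the adaptor of cytosolic DNA sensing, rose from 39.5 ± 9.97 to 52.3 ± 7.95 CPM (0.42, SE 0.09, adjusted p = 0.00497) and IKBKE, a kinase that activates IRF3, from 9.95 ± 2.37 to 13.3 ± 0.886 CPM (0.43, SE 0.14, adjusted p = 0.0457). The other 15 tested genes of this list were not called, and its median log2 difference was 0.01. Over all genes the paired fit called 9.71% higher.

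Of 53 tested further interferon-induced genes 4 rose and 8 fell, where the paired fit called 9.71% of all genes higher and 8.04% lower. The 4 that rose are a smaller share than that background, and the 8 that fell a larger one. DDX60, a helicase that supports RIG-I, held 11.7, 6.54 and 6.99 CPM with TGF-β and 23.1, 13.6 and 15.5 CPM with CXCL10 (1.06, SE 0.13, adjusted p = 9.18e-05), and it also passed DESeq2 without the pairing (adjusted p = 0.0125). CD274, which encodes the checkpoint ligand PD-L1, rose by 0.92, APOL2 by 0.35 and SLFN11 by 0.32 (log2). APOL6 fell most, from 43.4 ± 7.13 to 27.5 ± 5.45 CPM (-0.66, SE 0.09, adjusted p = 0.000167). UBE2L6, the conjugating enzyme for ISG15, changed by -0.53 (adjusted p = 0.0321), opposite to ISG15 itself. TMEM140 (-0.53), MOV10 (-0.50), PSMB8 (-0.43), SLFN5 (-0.32), RBCK1 (-0.21) and ADAR (-0.16) were also lower. Of the interferon-induced chemokines, CXCL9 and CXCL11 had 0 counts in all libraries, and CXCL10 had 4 counts in CXCL10 replicate 1 and 0 in the others.

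The libraries held 12838106 to 15587409 counts. All 10 fibroblast markers examined had counts, with a summed level of 52966 to 60439 CPM with TGF-β and 50611 to 54928 CPM with CXCL10. Of these markers VIM (0.38) and THY1 (0.43) were called higher and COL1A1 (-0.14), DCN (-0.25) and LUM (-0.32) lower in the paired fit, and their part in the ISG differences was not tested. Leukocyte markers, which matter here because leukocytes carry many ISGs, summed to 42.6 to 48.0 CPM with TGF-β and 42.3 to 48.6 CPM with CXCL10. Most of this sum was CD68, at 36.3 to 44.3 CPM per library, while PTPRC held at most 0.553 CPM. CD3E and NKG7 of the 10 were at 0 counts. Of 5 markers of plasmacytoid dendritic cells, the main producers of type I interferon, CLEC4C, IL3RA, LILRA4 and GZMB were at 0 counts, and the fifth, TCF4, which other cells also express, stood at 40.2 to 42.3 CPM with TGF-β and 42.4 to 47.4 CPM with CXCL10. Endothelial markers summed to 50.5 to 52.0 CPM with TGF-β and 48.2 to 52.3 CPM with CXCL10, with EMCN of the 7 at 0. Most of that sum was TEK, at 44.7 to 48.5 CPM per library, while PECAM1 held at most 1.05 CPM. Tubule epithelium markers summed to 2961 to 3449 CPM and 3179 to 3440 CPM, with CDH16, LRP2 and UMOD of the 11 at 0. Nearly all of it was KRT8 (1893 to 2132 CPM) and KRT18 (992 to 1309 CPM), while EPCAM held at most 0.56 CPM. Of the 5 tubule markers tested, KRT18 was called higher (0.23) and CDH1, at 0.211 to 3.68 CPM, lower (-1.89). In bulk RNA fewer cells expressing a gene and less RNA per cell cannot be told apart.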

How the data were processed

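Bulk RNA-seq was deposited as a table of raw counts and FPKM per gene and library, per the file headers. The deposited table also gives the authors' group means of FPKM, a log2 ratio between these, and a p-value with its adjusted form, from a test that is not given in the sources used here. The submitters' processing notes name GRCm38 and mm10, which conflicts with the human rows. The aligner, counting tool and strand setting are likewise not given. No sequences or coordinates are given, because the reference at hand is mouse.

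The main test was the quasi-likelihood test of edgeR 4.0.16 (R 4.3.3) with TMM scaling and filterByExpr (min.count 10, min.total.count 15), which left 11970 genes. It was run without the replicate number as a block, which was set as the main fit, and with it. DESeq2 1.42.0 and limma 3.58.1 (limma-trend) were alternatives. Per-pair log2 differences use a prior count of 2. Samples were grouped by their titles and treatment. The labels do not pair the replicates. Across tested genes, same-numbered libraries deviated from their groups together, with correlations of 0.330, 0.121 and 0.163. Over genes with at least 5 CPM they correlated at 0.536, 0.228 and 0.202, beside crossed values of 0.237 and 0.262 between replicates 2 and 3, so the pairing rests mainly on replicate 1. Every pair of libraries within a group differed by more than sampling noise (chi-square per degree of freedom of 2.79 to 17.4). Separate cultures are not stated for the replicates, so p-values measure only the spread between these libraries, which may be technical. In the paired fit it is the spread left after the replicate effect is removed. The fits were tested on simulated data.

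The members, the lists of other genes and the tests were chosen with earlier results of these data known. Per-library values were given for members called in either fit, for the 5 with the highest mean FPKM and for those whose groups did not overlap. Some genes of the lists are not reported here.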

Additional observations from a re-analysis of the deposited data

How the results depend on the processing

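The fit without a replicate block called 0 members higher and 0 lower. With the replicate block edgeR called 9 and 12, DESeq2 7 and 5, limma-trend 7 and 4 with a pseudocount of 1 and 7 and 4 with 0.1, scaling by library totals 9 and 14 (all genes 7.33% and 11.4%), the filter of at least 1 count 10 and 14 (8.86% and 6.66%), and a filter on a mean of 5 CPM gave 7 and 12 (12.1% and 10.6%). Scaling by library totals also moved the median of all genes from -0.01 to -0.05. DESeq2 without the block called 0 and 3. Leaving out libraries gave 0 to 10 members higher and 0 to 12 lower: without the block, 10 and 12 without TGF-β replicate 1 and 0 without any other single library. With the block, dropping a replicate number in both groups gave 9 and 12 (replicate 1; all genes 12.7% and 10.9%), 8 and 8 (replicate 2; 5.66% and 4.67%) or 9 and 6 (replicate 3; 4.46% and 3.02%). The median log2 difference of the members ranged from -0.15 to 0.00 over these leave-outs and was -0.19 with a mean of at least 5 CPM, which left 36 members. The cause of these differences was not tested, and some of these fits also held fewer genes or libraries. The 21 called members had the same sign in every alternative that gave them a value, which was largely fixed in advance. All same-numbered pairs were higher for the 9 risers and lower for the 12 fallers. Groups did not overlap for 12 of the 21 in scaled CPM and 11 in FPKM, among members picked by the same comparison. In scaled CPM 11.1% of all tested genes had groups apart with CXCL10 higher, and 11.2% with CXCL10 lower. Of these 21 members, IFIT2 and TRIM25 overlapped in FPKM only and PARP10 in scaled CPM only. Depth limits the 7 members with at most 13 counts per library.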
